A study of Mus musculus with 14 samples.

Results

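The genes described here are 10 effector cytokine and chemokine ligands of T cells, Ifng, Tnf, Ltb, Il2, Il4, Csf2, Ccl3, Ccl4, Ccl5 and Xcl1. They were chosen by symbol from the 24091 genes of the deposited count table, and all 10 had enough reads to be among the 12248 genes tested. T cells were sorted from mouse spleen (200000 cells a mouse), and each mouse gave 1 mRNA library. The chronic phase (CP) CML group held 8 Mir142+/+BCR-ABL mice and the blast crisis (BC) CML group 6 Mir142−/−BCR-ABL mice, all on the C57BL/6J background. Mice of both groups carried the SCLtTA and BCR-ABL transgenes, in which a tetracycline-controlled transactivator driven by an SCL (Tal1) regulatory element switches BCR-ABL on when tetracycline is withdrawn, and both had been without tetracycline for 3 weeks. The mice were young adults, no treatment was given, and the age and sex of each animal are not given in the labels. The Mir142 deletion was in every cell of the BC CML mice and not in T cells alone. The mouse names of the groups carry different prefixes, 1 for all CP CML and another for all BC CML mice. What the prefixes stand for is not stated, and whatever they mark cannot be told apart from genotype.

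A T cell that meets its antigen releases effector cytokines, which instruct neighbouring cells, and chemokines, which draw cells in. IFN-γ (Ifng) and TNF (Tnf) act on macrophages and target cells, IL-2 (Il2) feeds T cell proliferation, IL-4 (Il4) is the hallmark of type 2 helper cells, and GM-CSF (Csf2) acts on myeloid cells. MIP-1α (Ccl3), MIP-1β (Ccl4) and RANTES (Ccl5) attract effector T cells and myeloid cells, and lymphotactin (Xcl1) binds XCR1 on cross-presenting dendritic cells. Many of these mRNAs are short-lived, because AU-rich stretches in the 3′ untranslated region (UTR) recruit decay proteins such as tristetraprolin. NK cells and other innate lymphocytes make several of the same ligands without prior priming.

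The sequences of the deleted microRNA are shown because a microRNA acts on mRNAs that match its seed, the bases 2 to 8 from its 5′ end. In the RefSeq annotation of GRCm38.p6 both mature forms lie on the plus strand of chromosome 11, miR-142a-5p at chr11:87756867-87756887 and miR-142a-3p at chr11:87756903-87756925. Capitals mark the seed.
miR-142a-5p: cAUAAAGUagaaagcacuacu
miR-142a-3p: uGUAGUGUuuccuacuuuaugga
The longest annotated 3′ UTR of each ligand (GENCODE vM21, same build, 104 to 764 bases) was searched on the sense strand for the 7-base complement of either seed (ACTTTAT or ACACTAC) and for its 7-base variant ending in an A opposite base 1 (CTTTATA or CACTACA). None of the 10 ligand 3′ UTRs held a match, and 10.5% of the 3729 tested genes whose 3′ UTR had a length in the same range held at least 1. A search of this kind says only that these letters are not in these stretches.

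The same 3′ UTRs were searched for the AU-rich pentamer ATTTA, in which T stands for U of the mRNA, with overlapping copies counted. Of the 10 ligands, 8 held at least 1 copy and 5 held at least 3, against 41.8% and 6.33% of the tested genes in that length range. Csf2 held 9 copies in 317 bases, Tnf 8 in 764, Il2 7 in 581, Ifng 6 in 631 and Ccl3 5 in 409. At least 5 copies were found in 1.21% of the genes in that range. Ccl4 and Il4 held 2 copies each and Xcl1 1, while Ccl5 and Ltb held 0. The longer motif TATTTAT was present in the same 8 ligands, in 9 copies in Csf2 and 8 in Tnf, and in 11.5% of the genes in that range. The stretch of 30 bases richest in the pentamer is shown for the ligands with at least 3 copies, to show how closely the copies stand in these 5 mRNAs, with the pentamers in capitals. They lie at chr17:35199678-35199707 (Tnf, minus strand), chr11:54247325-54247354 (Csf2, minus strand), chr3:37121039-37121068 (Il2, minus strand), chr10:118445332-118445361 (Ifng, plus strand) and chr11:83648075-83648104 (Ccl3, minus strand).
Tnf: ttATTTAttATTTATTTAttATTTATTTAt
Csf2: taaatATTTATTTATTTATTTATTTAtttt
Il2: tATTTATTTAaatATTTAactttaATTTAt
Ifng: cctATTTAttaatATTTAaaactATTTAta
Ccl3: ttgaaattttATTTAATTTAatcctattgg
These stretches held 5 copies each in Tnf and Csf2, 4 in Il2, 3 in Ifng and 2 in Ccl3.

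**Figure D1:**
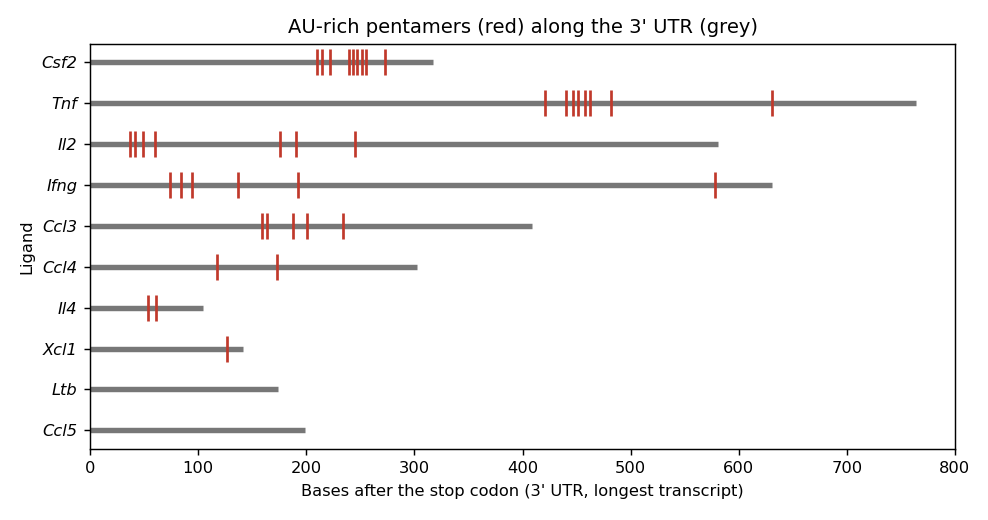
The 3′ UTR of each ligand, drawn as a grey bar, with red ticks where an ATTTA pentamer starts. The bar's length is the number of bases after the stop codon in the GENCODE vM21 transcript with the longest 3′ UTR. Csf2 carries 9 ticks within 317 bases and Tnf 8 within 764, while Ccl5 and Ltb carry 0.

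Each library held between 15703702 and 19914531 reads counted on genes. The deleted gene Mir142 had 302 to 650 reads in each CP CML library and 0 in each BC CML library. The T cell marker Cd3e, a subunit of the T cell receptor complex, had 5922 to 8329 reads in CP CML and 6752 to 8039 in BC CML, while other subunits of the complex moved in either direction: Cd3g rose by 0.59 on the log2 scale (adjusted p = 1.7e-10 from edgeR) and Cd247 fell by 0.32 (adjusted p = 2.5e-06). Values are CPM, read counts scaled to a common library size after TMM. Changes are log2 fold changes of BC CML against CP CML with their standard error (SE), and p-values come from the quasi-likelihood test of edgeR, adjusted over all tested genes (threshold 0.05). Where nothing is said of the spread, ± is the SD over 8 CP CML or 6 BC CML mice. The median log2 fold change over all tested genes was −0.01.

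Of the 10 ligands, 6 rose in BC CML (Ccl3, Xcl1, Ccl4, Tnf, Csf2 and Ccl5), 1 fell (Il2) and 3 did not pass the test (Ifng, Il4 and Ltb). Most genes differed between these groups: 65.2% of all tested genes passed the threshold, 32.6% as higher and 32.7% as lower. The groups did not overlap for 4 of the ligands, all higher in BC CML (Ccl3, Xcl1, Ccl4 and Tnf), and 19.3% of all tested genes were higher without overlap. Among the called ligands, 5 rose by at least 1 on the log2 scale, as did 10.1% of all tested genes. The median log2 fold change over the 10 ligands was 0.76. The changes ran from 3.20 for Ccl3 to −0.90 for Il2, so the ligands did not move as a block.

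**Figure D2:**
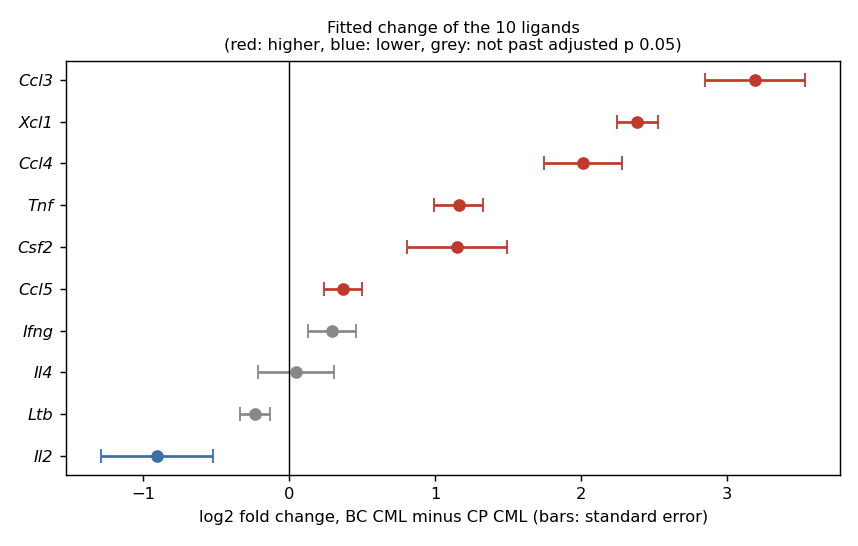
Log2 fold change of BC CML (6 mice) against CP CML (8 mice) on the horizontal axis for each ligand, with bars of ± 1 SE from edgeR's quasi-likelihood fit. Red marks the 6 ligands that rose, blue the 1 that fell and grey the 3 that did not pass the adjusted p threshold of 0.05.

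Tnf (chr17:35199367-35202007, minus strand) encodes a cytokine that activates endothelium and macrophages and can kill target cells. Its level ran from 7.69 CPM through a median of 14.9 to 17.8 CPM in CP CML, and from 27.0 through 32.4 to 35.2 CPM in BC CML. Every BC CML mouse lay above every CP CML mouse. The mean went from 13.9 ± 4.09 to 31.2 ± 3.24 CPM, a log2 fold change of 1.16 (SE 0.17, adjusted p = 2.18e-05). The spread among mice was 29.5% of the mean in CP CML and 10.4% in BC CML. The lowest CP CML mouse was CP CML 2, with 126 reads, and the highest BC CML mouse BC CML 1, with 634.

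Ltb (chr17:35194507-35196305, plus strand) encodes lymphotoxin β, a membrane TNF family ligand that maintains lymphoid tissue architecture. It had 140 to 233 CPM in CP CML (median 189.7) and 129 to 189 CPM in BC CML (median 162). The groups overlapped, with only BC CML 4 below every CP CML mouse, but all 6 BC CML mice lay below the CP CML median. The mean was 190.4 ± 27.5 CPM in CP CML and 162 ± 22.0 CPM in BC CML, with a log2 fold change of −0.23 (SE 0.10) that did not pass the test (adjusted p = 0.0576). Without CP CML 7, BC CML 1 or BC CML 6 it passed (adjusted p = 0.00795, 0.0420 and 0.0296), as it did with DESeq2 (adjusted p = 0.0377), with edgeR's likelihood ratio test (adjusted p = 0.0420) and with library size alone (adjusted p = 0.0467). The neighbour Lta, which encodes the soluble partner lymphotoxin α, had 8.58 ± 1.99 CPM in CP CML and 10.2 ± 1.81 CPM in BC CML (log2 fold change 0.25, SE 0.15, adjusted p = 0.159 from edgeR). Tnf, Lta and Ltb lie side by side on chromosome 17, and of them only Tnf was called.

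Ifng (chr10:118441046-118445894, plus strand) encodes IFN-γ, the hallmark cytokine of type 1 helper cells, CD8 effector cells and NK cells. It had 6.19 to 10.5 CPM in CP CML (median 9.28) and 6.51 to 16.5 CPM in BC CML (median 11.4). Of the 6 BC CML mice, 4 lay above every CP CML mouse, while BC CML 3, at 6.51 CPM, lay near the lowest of them. The mean was 9.06 ± 1.48 CPM in CP CML and 11.1 ± 3.35 CPM in BC CML, with a log2 fold change of 0.29 (SE 0.16) that did not pass the test (adjusted p = 0.132). Without BC CML 3 the log2 fold change was 0.41 and passed (adjusted p = 0.0180), and without BC CML 2, the highest mouse, it was 0.15 (adjusted p = 0.402). Tmevpg1, a long noncoding RNA gene next to Ifng and the only other tested gene within 150 kb, had 11.5 CPM in CP CML and 3.16 CPM in BC CML and fell by 1.86 on the log2 scale (adjusted p = 8.0e-08). The span of Tmevpg1, chr10:118502035-118556525, does not overlap that of Ifng. No strand setting is stated for the counting, so reads of an overlapping antisense transcript cannot be told apart.

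Il2 (chr3:37120716-37125954, minus strand) encodes the main growth factor of activated T cells. Its counts were low, 7 to 25 reads (median 13.0) in CP CML and 3 to 15 reads (median 6.5) in BC CML. The 6 BC CML mice fell into 4 below every CP CML mouse and 2, BC CML 5 and BC CML 6, inside their range. The mean went from 0.836 ± 0.397 to 0.443 ± 0.265 CPM, a log2 fold change of −0.90 (SE 0.38) just past the test (adjusted p = 0.0470). Leaving out any of 9 mice, CP CML 1, 4, 5, 6 or 8 or BC CML 1, 2, 3 or 4, ended the call, with adjusted p-values between 0.0510 and 0.105. Its receptor genes stood apart from it: Il2rb, the β chain shared with IL-15, rose from 518 ± 31.5 to 954 ± 120.2 CPM (log2 fold change 0.88, SE 0.07, adjusted p = 3.0e-09), and Il2ra, the high-affinity α chain, had 80.9 ± 6.98 and 88.2 ± 13.4 CPM (adjusted p = 0.197).

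Il4 (chr11:53612461-53618665, minus strand) had 0.566 to 1.84 CPM in CP CML (median 1.05) and 0.720 to 1.56 CPM in BC CML (median 1.23), with all BC CML mice inside the CP CML range. The log2 fold change was 0.04 (SE 0.26, adjusted p = 0.892). It had 9 to 34 reads a library, and an error of this size leaves room for a change in either direction.

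Csf2 (chr11:54247270-54249899, minus strand) encodes GM-CSF, which drives the production and activation of granulocytes and macrophages. It had 3 to 23 reads in CP CML (median 11) and 17 to 46 reads in BC CML (median 23.0). The groups overlapped, since only BC CML 2 and BC CML 4 lay above CP CML 1, the highest CP CML mouse. The mean went from 0.646 ± 0.353 to 1.47 ± 0.709 CPM, a log2 fold change of 1.15 (SE 0.34, adjusted p = 0.00689). BC CML 2 had 2.87 CPM and the next BC CML mouse 1.46 CPM, and without BC CML 2 the log2 fold change was 0.86 (adjusted p = 0.0274).

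Ccl3 (chr11:83647843-83649378, minus strand) had the largest change of the 10. It had 11 to 48 reads in CP CML (median 18) and 130 to 389 reads in BC CML (median 171). As CPM it ran from 0.672 through 1.03 to 3.02 in CP CML and from 6.82 through 9.02 to 24.2 in BC CML. No mouse of either group lay in the range of the other, although CP CML 8 and BC CML 2 each stood well above the rest of its group. Its mean rose from 1.29 ± 0.747 to 11.9 ± 6.52 CPM, a log2 fold change of 3.20 (SE 0.34, adjusted p = 8.8e-07), or 9.17-fold. The log2 fold change was between 2.86 and 3.48 when any 1 mouse was left out.

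Ccl4 (chr11:83662584-83664683, plus strand) lies beside Ccl3 and encodes the related chemokine MIP-1β. It ran from 0.919 through 1.82 to 2.61 CPM in CP CML and from 4.62 through 6.19 to 13.6 CPM in BC CML. The groups did not overlap, and BC CML 2 was again the highest. On average it rose from 1.81 ± 0.643 to 7.37 ± 3.30 CPM, a log2 fold change of 2.02 (SE 0.26, adjusted p = 4.2e-06).

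Ccl5 (chr11:83525779-83530518, minus strand), which encodes RANTES, is stored as mRNA by memory and effector CD8 T cells and was already abundant in CP CML. It ran from 95.4 through 108 to 139 CPM in CP CML and from 108 through 131 to 192 CPM in BC CML. The groups overlapped, with BC CML 2 and BC CML 4 above every CP CML mouse and the other 4 inside their range. The mean went from 111 ± 15.2 to 144 ± 34.0 CPM, a log2 fold change of 0.37 (SE 0.13, adjusted p = 0.0219). Without BC CML 2 or BC CML 4 the log2 fold change was 0.27 or 0.30 and missed the threshold (adjusted p = 0.0600 and 0.0604). Without BC CML 2 or without BC CML 4, 5 ligands were called higher, and without BC CML 3, 7.

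Xcl1 (chr1:164931648-164935510, minus strand), the gene of lymphotactin, had the smallest error relative to its change. It ran from 7.86 through 11.5 to 13.4 CPM in CP CML and from 40.1 through 54.8 to 75.8 CPM in BC CML, and the lowest BC CML mouse lay far above the highest CP CML mouse. Its mean rose from 10.9 ± 1.90 to 57.1 ± 12.6 CPM, a log2 fold change of 2.39 (SE 0.14, adjusted p = 6.8e-10), or 5.23-fold. Its receptor gene Xcr1 had 1 to 14 reads in CP CML and 1 to 19 in BC CML, too few to be tested.

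**Figure D3:**
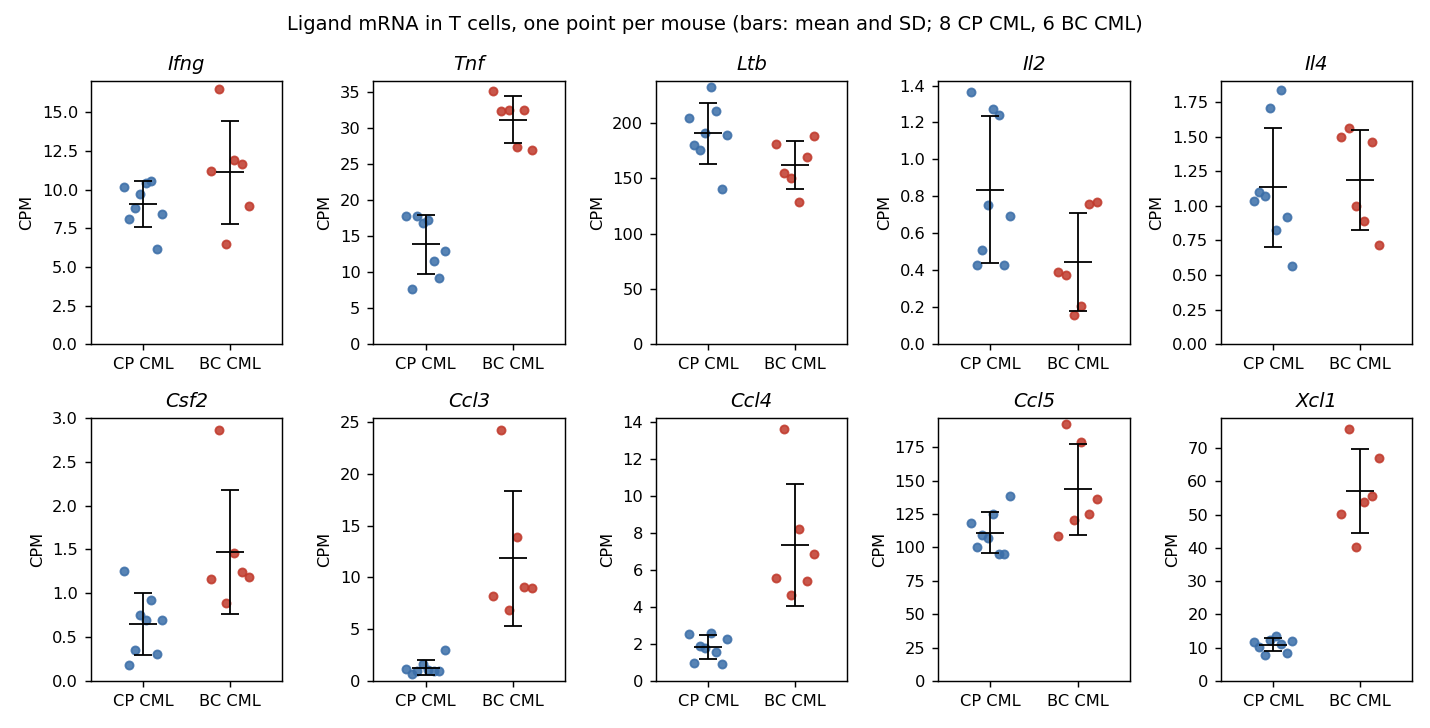
CPM of each ligand (vertical axes, each starting at 0) in every CP CML mouse (blue, n = 8) and BC CML mouse (red, n = 6), with the mean and SD in black. The groups separate for Tnf, Ccl3, Ccl4 and Xcl1 and overlap for the other 6 ligands, and BC CML 2 is the highest of all 14 mice for 6 ligands (Ifng, Csf2, Ccl3, Ccl4, Ccl5 and Xcl1).

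Levels of different genes were compared per kilobase of gene length (CPM per kb). In CP CML the order from the highest was Ccl5 (210.5 ± 28.9), Ltb (133 ± 19.2), Xcl1 (21.9 ± 3.81), Tnf (8.41 ± 2.48), Ifng (7.51 ± 1.23), Ccl4 (2.76 ± 0.978), Ccl3 (1.64 ± 0.950), Il4 (1.35 ± 0.514), Il2 (0.888 ± 0.421) and Csf2 (0.627 ± 0.343). The ranges of mean ± SD overlapped between Tnf and Ifng and between each pair of neighbours from Ccl4 down to Csf2. In BC CML the order was Ccl5 (272 ± 64.5), Xcl1 (114 ± 25.2), Ltb (113 ± 15.4), Tnf (18.9 ± 1.97), Ccl3 (15.1 ± 8.28), Ccl4 (11.2 ± 5.02), Ifng (9.22 ± 2.78), Csf2 (1.43 ± 0.689), Il4 (1.42 ± 0.431) and Il2 (0.470 ± 0.281). There Xcl1 and Ltb, the 4 genes from Tnf to Ifng, neighbour by neighbour, and Csf2 and Il4 overlapped. Xcl1 thus stood with Ltb in BC CML, while Ltb had been several times higher per length in CP CML.

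The promoters of Ccl3, Xcl1, Tnf and Ifng (RefSeq, GRCm38.p6) are shown to set the regulatory sequence of called ligands beside that of Ifng, which was not called. The first 3 are the most changed ligands among those with a promoter in the sequences used. Those sequences held none for Ccl4, which changed more than Tnf. A promoter here is 250 bases before to 50 after the annotated start, and 9 such promoters matched 8 of the ligands, 2 of them for Il4. They were searched on both strands for TATAAA (the core of the box of that name), GGAAAA (NFAT core), TGANTCA (AP-1), GGTGTGA (T-box), CAGGAAG (ETS) and TGTGGT (RUNX), and matches are in capitals in the strand of the gene. The promoters lie at chr11:83649329-83649628 (Ccl3), chr1:164935473-164935772 (Xcl1), chr17:35201958-35202257 (Tnf) and chr10:118440796-118441095 (Ifng).
Ccl3: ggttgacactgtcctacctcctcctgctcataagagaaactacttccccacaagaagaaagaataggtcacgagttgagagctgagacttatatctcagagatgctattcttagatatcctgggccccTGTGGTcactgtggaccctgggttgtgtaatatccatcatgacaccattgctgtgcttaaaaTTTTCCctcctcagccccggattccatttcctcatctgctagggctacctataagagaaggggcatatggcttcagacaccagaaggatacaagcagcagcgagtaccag
Xcl1: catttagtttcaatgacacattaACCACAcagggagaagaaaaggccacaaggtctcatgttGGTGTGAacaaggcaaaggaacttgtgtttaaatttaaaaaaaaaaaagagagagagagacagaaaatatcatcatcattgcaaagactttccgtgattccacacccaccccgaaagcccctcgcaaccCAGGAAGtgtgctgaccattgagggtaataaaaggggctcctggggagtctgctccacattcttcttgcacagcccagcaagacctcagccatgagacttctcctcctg
Tnf: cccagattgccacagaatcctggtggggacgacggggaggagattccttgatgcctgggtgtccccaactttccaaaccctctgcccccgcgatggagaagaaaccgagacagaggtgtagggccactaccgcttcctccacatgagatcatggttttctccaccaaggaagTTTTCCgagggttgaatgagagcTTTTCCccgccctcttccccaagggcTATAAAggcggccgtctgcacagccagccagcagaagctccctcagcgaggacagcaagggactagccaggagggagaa
Ifng: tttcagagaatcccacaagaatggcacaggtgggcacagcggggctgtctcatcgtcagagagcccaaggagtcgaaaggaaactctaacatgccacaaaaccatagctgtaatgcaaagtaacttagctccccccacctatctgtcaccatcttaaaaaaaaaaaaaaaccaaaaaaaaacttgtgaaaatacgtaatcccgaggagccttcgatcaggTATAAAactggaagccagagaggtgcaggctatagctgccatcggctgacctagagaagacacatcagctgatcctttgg
The Tnf promoter held a TATA box and 2 NFAT cores, the Ifng promoter a TATA box, the Ccl3 promoter 1 NFAT core and 1 RUNX motif, and the Xcl1 promoter 1 match each to the T-box, ETS and RUNX motifs. Over the 9 ligand promoters, the TATA box was found in 3, the NFAT core in 4, the ETS and RUNX motifs in 2 each, the T-box motif in 1 and the AP-1 motif in 0. Among all 32851 promoters of this length, these motifs were found in 13.6% (TATA box), 23.4% (NFAT core), 13.3% (ETS), 16.8% (RUNX), 3.98% (T-box) and 7.81% (AP-1). A match is a run of letters and not a bound site.

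To see whether mice high for 1 ligand were also high for others, deviations of log2 CPM from the group mean were compared over the 14 mice for the 45 pairs of ligands, with permutation p-values adjusted over the 45. The correlation (Pearson's r) was above 0 in 40 pairs, and 8 passed an adjusted p of 0.05. Taken within each group it was above 0 in 41 pairs in CP CML and in 31 in BC CML. In BC CML, Tnf was below 0 with 6 of the 9 other ligands and Ltb with 5, among them Tnf with Ccl4 (r = −0.24, against 0.87 in CP CML) and Ltb with Ccl5 (r = −0.61, against 0.45), and the difference between the groups was not tested. Ccl4 with Ccl5 gave r = 0.83 (permutation p = 0.00016, adjusted p = 0.0072) and rho = 0.86 (permutation p = 0.0001, adjusted p = 0.0045). The r of this pair was 0.76 without CP CML 7 and BC CML 2, the mice farthest from the median for Ccl4. In each pair the mice left out were chosen by the first-named ligand alone. Ccl3 with Ccl5 gave r = 0.81 (permutation p = 0.00088, adjusted p = 0.0128) and rho = 0.74 (permutation p = 0.00456, adjusted p = 0.0257), with r = 0.65 without CP CML 8 and BC CML 2. Csf2 with Ccl4 gave r = 0.82 (permutation p = 0.00121, adjusted p = 0.0128) and rho = 0.78 (permutation p = 0.00282, adjusted p = 0.0201), with r = 0.69 without CP CML 2 and BC CML 2. Il2 with Ltb, the ligands below 0 in the comparison of the groups, gave r = 0.80 (permutation p = 0.00069, adjusted p = 0.0128) and rho = 0.84 (permutation p = 0.00059, adjusted p = 0.00664), with r = 0.80 without BC CML 3 and BC CML 6. The other 4 pairs past the threshold for r were Ifng with Csf2, Ccl3 with Ccl4, Csf2 with Xcl1, and Ifng with Ccl4, which passed by r alone (rho = 0.67, permutation p = 0.0137, adjusted p = 0.0561). By rho alone passed Csf2 with Ccl3 (rho = 0.83, adjusted permutation p = 0.00664), Ccl3 with Xcl1 (rho = 0.73, adjusted permutation p = 0.0263) and Ccl4 with Xcl1 (rho = 0.69, adjusted permutation p = 0.0437). The deviations of 1 mouse share a library, so a difference in cell make-up or RNA quality between libraries enters every pair, and its part was not tested.

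**Figure D4:**
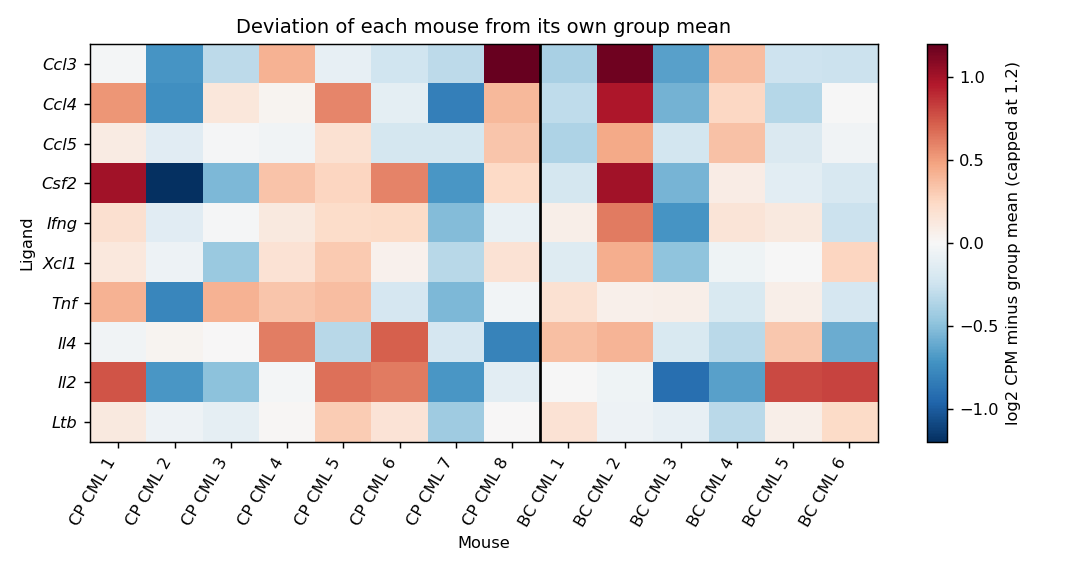
Log2 CPM of each ligand (rows) in each mouse (columns) minus the mean of its own group, red above and blue below the mean, capped at ± 1.2. BC CML 2 is red in 6 adjoining rows (Ccl3, Ccl4, Ccl5, Csf2, Ifng and Xcl1) and in Il4, and BC CML 3 is blue in every row except Tnf. Il2 and Ltb are near the mean in BC CML 2.

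The genes most like each ligand over the 14 mice were found among 10907 tested genes with an average log2 CPM of at least 1, by Pearson's r of the same deviations, as a description. For Ccl3 they were Cd160 (r = 0.90), Klra7 (r = 0.90) and Klre1 (r = 0.83), which encode receptors of NK cells and some CD8 T cells. For Ccl4 they were Baiap3 (r = 0.94), Rgs3 (r = 0.91) and Slamf7 (r = 0.89), and for Ccl5 Klra7 (r = 0.88), Slc35e3 (r = 0.86) and Baiap3 (r = 0.85). For Xcl1 they were Ikzf2 (r = 0.91), the gene of the transcription factor Helios, Kansl1l (r = 0.89) and Ell2 (r = 0.88). Csf2 had 1810011H11Rik (r = 0.92), Slamf7 (r = 0.89) and C030034L19Rik (r = 0.89). Ltb had Sash3 (r = 0.94), Zbtb7b (r = 0.93), which encodes the CD4 lineage factor ThPOK, and Tnip1 (r = 0.91). Ifng had Ehbp1l1, Kcnk5 and Pygb (r = 0.91, 0.89 and 0.89), Tnf Ifi27, Josd2 and Kifc5b (0.91, 0.89 and 0.88), Il2 Tgtp2, Pou2f2 and Lbh (0.91, 0.89 and 0.89), and Il4 Mrpl17, Ptprv and Sephs1 (0.83, 0.80 and 0.77). Each of these genes was picked for its high r among 10907, so a high r comes in part from the choice. No r of this kind was tested.

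The receptors of the ligands are the other side of this signalling. Of 17 listed receptor genes 16 were tested, 11 were called higher and 2 lower, with a median log2 fold change of 0.93. Of all tested genes, 32.6% were called higher and 32.7% lower. Ccr1, which binds CCL3 and CCL5 and is common on myeloid cells, rose by 2.39 from 0.836 CPM. Tnfrsf1a, the main receptor of soluble TNF, rose from 42.2 ± 2.80 to 106 ± 9.76 CPM (log2 fold change 1.33, SE 0.06, adjusted p = 1.7e-12), while Tnfrsf1b had 138 CPM in both groups (log2 fold change 0.00, SE 0.04). Ltbr, the receptor of membrane lymphotoxin and a gene of stromal and myeloid cells, rose by 1.44 from 0.995 CPM. Ccr4, a receptor of type 2 and regulatory T cells, fell by 0.86 on the log2 scale and Ifngr2, a chain of the IFN-γ receptor, by 0.18.

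Among 31 tested ligands of a wider list (52 listed), 16 were called higher, 2 lower and 13 were not called, with a median log2 fold change of 0.75. Over all tested genes 65.2% were called, 32.6% as higher and 32.7% as lower. Spp1, the gene of osteopontin, rose from 0.591 ± 0.175 to 18.8 ± 6.16 CPM (log2 fold change 4.99, SE 0.24, adjusted p = 1.6e-11). Cxcl2 and Cxcl16 rose by 3.40 and 3.38. Fasl, the death ligand of cytotoxic cells, rose by 1.55 and Tnfsf10, the gene of TRAIL, by 1.33. Il10, which encodes an anti-inflammatory cytokine, fell by 1.24 on the log2 scale and Il16 by 0.17. Il3, Il9 and Ccl2 were among the 20 listed genes of the table that had too few reads to be tested.

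Regulators known to act on these ligand genes held genes called in both directions, as did all tested genes, of which 65.2% were called. Of 26 transcription regulators, 15 were called higher and 8 lower, with a median log2 fold change of 0.15. Eomes, a T-box factor of CD8 and NK cells, rose from 77.6 ± 14.2 to 257 ± 25.4 CPM (log2 fold change 1.73, SE 0.11, adjusted p = 1.5e-09). Bhlhe40, a repressor needed for cytokine output by helper T cells, rose by 1.83, Hlx by 2.97 and Tbx21, the gene of T-bet, by 1.12. Runx1, Batf and Nfatc3 fell by 0.61, 0.61 and 0.54 on the log2 scale. Of 9 receptors for cytokines that induce the ligands, 5 were called higher and 4 lower: Il12rb2, the signalling chain of the IL-12 receptor, rose by 2.46, Il12rb1 by 1.08 and Il15ra by 1.09, whereas Il7r, Il18rap and Il18r1 fell by 1.00, 0.48 and 0.32. Of 14 regulators of cytokine mRNA stability, 7 were called higher and 2 lower, with a median log2 fold change of 0.11, so that the share called was near that of all tested genes. Zfp36, the gene of tristetraprolin, which binds AU-rich stretches of the kind shown for Tnf and Csf2, had 336 ± 30.3 and 318 ± 39.2 CPM (log2 fold change −0.08, adjusted p = 0.355), its relative Zfp36l2 rose by 0.73, Tia1 by 0.38 and Mapkapk2 by 0.39, and Zc3h12d and Hnrnpd fell by 0.54 and 0.19.

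**Figure D5:**
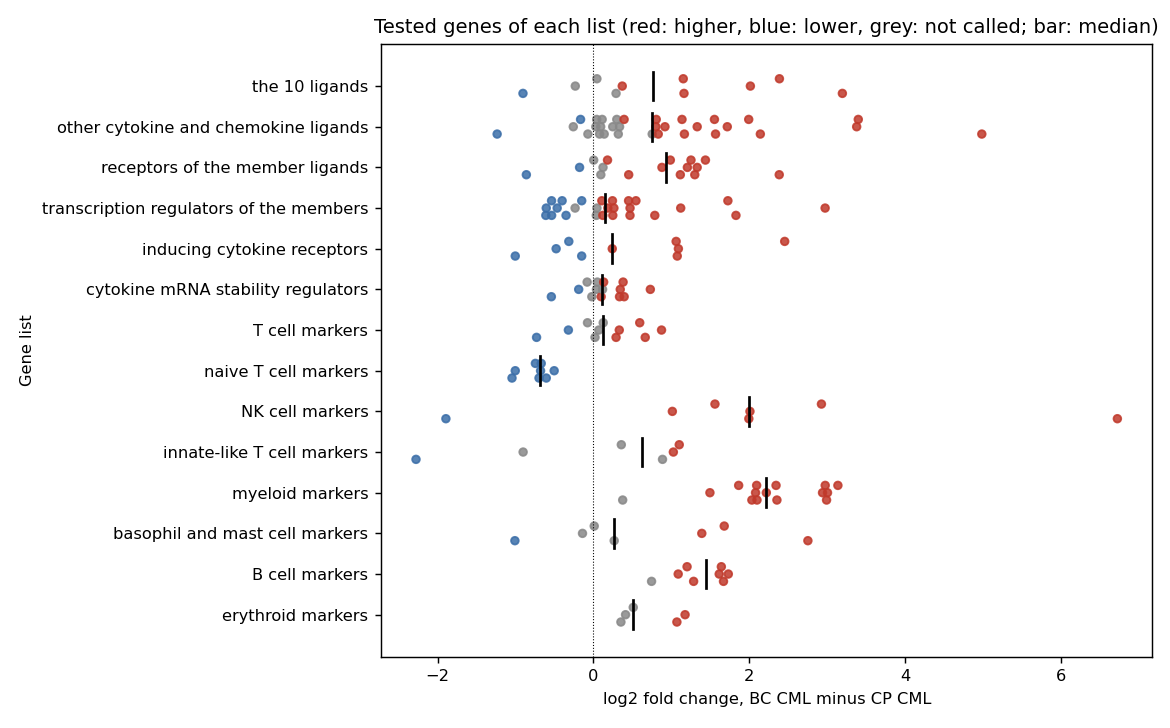
Log2 fold change of BC CML against CP CML (horizontal axis) for every tested gene of each list (vertical axis), red where called higher, blue where called lower, grey where not called, with a black bar at the list's median. The 10 ligands spread from −0.90 to 3.20, the 8 naive T cell markers all lie below 0, and the medians of the NK and myeloid markers are 2.00 and 2.22.

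The marker lists of T cell states and of other cell types differed in how many genes were called, where 32.6% of all tested genes were called higher and 32.7% lower. Of 8 naive T cell markers all 8 fell, among them Ccr7 by 1.05 on the log2 scale, and their summed level was 4919 to 6275 CPM in CP CML and 2702 to 3875 CPM in BC CML. Of 7 tested NK cell markers 6 were called higher and 1, Adamts14, a gene of a secreted protease, lower (by 1.89 on the log2 scale), and their summed level was 75.4 to 104 CPM in CP CML and 209 to 345 CPM in BC CML. Ncr1, which encodes the NK receptor NKp46, had 27 to 70 reads in CP CML and 100 to 355 in BC CML, whereas the listed markers Klra4 and Kir3dl1 had at most 1 read in any library. Klra8, an activating receptor gene of the Ly49 family that inbred mouse strains carry or lack, had 0 to 5 reads in CP CML and 185 to 326 in BC CML. C57BL/6J, the background the methods give for all mice, carries it. Klra8, Klra7, Klre1, Klri2 and Klrb1c all lie on chromosome 6 and Ncr1 on chromosome 7. A difference in strain between the groups around the chromosome 6 genes cannot be told apart from the genotype. Members of the Ly49 family are similar in sequence, so their counts are uncertain. Cd8a rose by 0.87 and Thy1, a general T cell surface marker, by 0.67, and Cd4 fell by 0.73 on the log2 scale, while Cd8b1 was not called (log2 fold change 0.07, adjusted p = 0.352 from edgeR).

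Of 15 myeloid markers 14 were called higher and 0 lower, and their summed level was 64.1 to 725 CPM in CP CML and 846 to 2261 CPM in BC CML. The defining gene Lyz2, which encodes lysozyme, had 136 to 858 reads in CP CML and 2582 to 5572 in BC CML, and Elane and Ctsg, which encode granule proteases of immature neutrophils, rose by 3.14 and 2.99 on the log2 scale. Of 8 B cell markers 7 were called higher, with a summed level of 59.3 to 178 and 104 to 513 CPM, led by Cd79a, Pax5 and Ms4a1, which rose by 1.73, 1.67 and 1.64. Of 7 tested basophil and mast cell markers 3 were called higher and 1 lower (8.43 to 20.8 and 23.1 to 64.2 CPM in sum), with 3 not called: Kit, the stem cell factor receptor of mast cells and blood progenitors, rose by 2.75, the granule enzyme gene Cpa3 by 1.68 and Hdc, which makes histamine, by 1.39, and Cd200r3 fell by 1.01 on the log2 scale. Of 6 innate-like T cell markers 2 were called higher, among them Cxcr6 by 1.10, and 1, Zbtb16, lower (61.3 to 93.9 and 109 to 222 CPM). The counts called higher among the innate-like, basophil and mast cell and erythroid markers were near the share of all tested genes. Of 11 T cell markers 5 were called higher and 2 lower (4605 to 5385 and 5957 to 6586 CPM), and of 5 tested erythroid markers 2 were called higher, among them Car2 by 1.18 (17.4 to 69.0 and 52.2 to 82.3 CPM in sum). The part of these cell types in the rise of Ccl3, Ccl4, Xcl1, Tnf and Csf2 was not tested. In libraries from many cells, a change in the number of cells of a type and a change in mRNA per cell cannot be told apart. CP CML 8, the highest CP CML mouse for Ccl3, was also the highest of its group for the NK, myeloid and basophil markers in sum. BC CML 2, the highest of its group for 7 ligands (Ifng, Il4, Csf2, Ccl3, Ccl4, Ccl5 and Xcl1), was the highest of its group for the innate-like T cell markers and the lowest for the naive markers. It was not the highest for the other types: the NK markers were highest in BC CML 4 (345 CPM in sum, 327 in BC CML 2), and the myeloid and basophil markers in BC CML 6 (2261 and 64.2 CPM, against 1105 and 47.6 in BC CML 2), which lay near the median of its group for Ccl3.

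Several ligand genes lie on the chromosome of the deleted gene. Ccl4, Ccl3 and Ccl5 are 4.09, 4.11 and 4.23 Mb from Mir142 on chromosome 11, and Csf2 and Il4 are 33.5 and 34.1 Mb from it. A sequence difference carried along with the altered Mir142 allele and the loss of miR-142 itself cannot be told apart for such genes. Of the 9 tested genes within 150 kb of Ccl3, 5 were called higher and 1 lower, where 32.6% and 32.7% of all tested genes were, and the 5 include Ccl4 and Ccl5 themselves. Ccl9, another chemokine gene there, went from 2.11 to 4.64 CPM (log2 fold change 1.14, adjusted p = 0.0176), Heatr9, next to Ccl5, from 11.4 to 28.4 CPM (log2 fold change 1.31, adjusted p = 8.9e-06) and Wfdc21 from 0.841 to 3.59 CPM (log2 fold change 2.13, adjusted p = 0.00134). Ccl6 had 4.77 and 8.02 CPM and just missed the threshold, and Taf15 had 187 and 182 CPM (adjusted p = 0.627 from edgeR). Within 150 kb of Tnf, 20 genes were tested, 6 were called higher and 4 lower.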

How the data were processed

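Spleen T cells of 14 mice (8 CP CML, 6 BC CML) were profiled by RNA-seq. The authors trimmed reads with Trimmomatic and FASTP, aligned them to mm10 with STAR 2.6.0, and deposited raw counts per gene from HTSeq 0.11.1 with gene lengths; annotation and strand setting are not given in the sources used here. Counts were filtered by filterByExpr (12248 genes), TMM normalized and tested by edgeR 4.0.16 (glmQLFit, robust; glmQLFTest; Benjamini-Hochberg over all genes) in R 4.3.3. The paper's methods name the likelihood ratio test, which was an alternative. The others were DESeq2 1.42.0, other scalings and filters, a replicate block over mice 1 to 6 of each group, and each mouse left out. In a test on simulated counts of 12185 genes, 200 of them shifted by a log2 change of 1, edgeR called 187 of the 200 and 15 others. Replicate numbers did not pair the mice. Sequences came from RefSeq and GENCODE vM21 tables, and no promoter of Ccl4 or Ccl5 was used here. List genes were named by a rule (up to 3 called higher and 3 lower with the largest change and at least 1 CPM, and receptors of a ligand or defining markers of another cell type beside a ligand); Fasl, Tnfsf10, Tbx21, Zfp36, Cd3e, Cd8b1, Il3, Il9, Ccl2 and neighbours of the ligand genes were named after their values were seen. The ligands and lists were chosen with earlier results of these data known. The motifs were chosen after the counts were seen. Some genes of the lists are counted but not reported here by name.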

Additional observations from a re-analysis of the deposited data

Results flagged for a closer look

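In groups of 4 to 10 mice, a value was picked out when its gap to the next, as a share of the range of the group, passed Dixon's 95% critical value. The levels of the 10 ligands and the summed levels of the marker lists gave 36 groups of values, 3 of which were picked out, where chance alone gives about 1.8. Csf2 in BC CML was picked out for BC CML 2, with 2.87 CPM against 1.46 CPM in the next mouse (gap 0.710 of the range). Ccl3 in CP CML was picked out for CP CML 8, with 3.02 CPM against 1.6 CPM (gap 0.603). The innate-like T cell markers in sum were picked out in BC CML for BC CML 2, with 222 CPM against 138 CPM (gap 0.749).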

How the results depend on the processing

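Tnf, Ccl3, Ccl4 and Xcl1 kept their direction and their call under all 7 alternatives and with any 1 of the 14 mice left out. Of the other ligands, the fit with the replicate block gave −0.10 for Il4 (reversed, not called), 1.04 for Csf2 and 0.37 for Ccl5 (no longer called, edgeR adjusted p = 0.0562 and 0.0534) and −0.30 for Ltb (called, adjusted p = 0.00194), with 4 ligands higher and 2 lower; Ifng, not called, went from 0.29 to 0.16 (adjusted p = 0.443). That fit held only the mice numbered 1 to 6 in each group, so CP CML 7 and CP CML 8 were not in it. Leaving out CP CML 7 alone, without the block, gave −0.29 for Ltb (edgeR adjusted p = 0.00795) and 0.23 for Ifng. The part of the block and of the missing mice was not separated. The correlation of same-numbered mice ran from −0.27 to 0.36 over the 6 pairs (mean −0.02), so the numbers did not pair them. Il2 was not called with DESeq2 (−0.91, adjusted p = 0.0518) or with no filter on low counts (−0.91, adjusted p = 0.0524) and was not tested with the CPM filter. Ltb was called with the likelihood ratio test (−0.23), DESeq2 (−0.23) and library size alone (−0.24). The count of ligands called lower was 2 with the likelihood ratio test and with library size alone, and 0 with no filter and with the CPM filter. With 1 mouse left out it ran from 0 to 2, the count called higher from 5 to 7, and the log2 fold change from 0.15 to 0.41 for Ifng, −1.14 to −0.73 for Il2, −0.051 to 0.18 for Il4, 0.27 to 0.44 for Ccl5 and −0.29 to −0.18 for Ltb. With a prior count of 0.5 in place of 2, r of the pairs past the threshold stayed between 0.67 and 0.82. Il2, Il4 and Csf2 had low counts, and a floor of 3 reads is 0.151 to 0.191 CPM. Why calls changed was not tested.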
